A study of Mus musculus with 2 samples.

Results

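The genes of fatty acid and triglyceride metabolism described here were 53 mouse genes, given as a list of names and each found once among the 22380 protein-coding genes of the GENCODE M1 annotation. They were examined for GATA4 occupied sites in the adult liver, that is, for stretches of DNA that were recovered more often with an antibody to GATA4 than in input DNA. A gene was counted as occupied when the midpoint of a site lay in the gene body or within 10 kb of either end. By this rule 17 of the 53 genes held 20 of the 4409 sites of the common list, which is the set of sites found by both peak callers, SPP and MACS2.

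Chromatin immunoprecipitation followed by sequencing (ChIP-seq) was performed with the antibody GATA4 C-20 on whole livers of C57BL/6 x Sv129 mice aged 2 to 3 months by the sample labels, and liver DNA of the same strain and age that had not been immunoprecipitated was sequenced as input. No allele or treatment was named for either sample. By the study's methods each of 2 replicates held the livers of 2 mice. Peaks were called on each replicate and on both merged, and kept by the agreement of their ranks between replicates. The resulting lists stand for 1 ChIP sample without a value per replicate. Whole liver holds hepatocytes, endothelial cells, Kupffer cells, cholangiocytes and stellate cells. The peak lists do not tell apart the cells in which a site was occupied. The study reported that Gata4 deletion in hepatocytes almost fully removed GATA4 from examined sites at factor X, FOG1, HNF4α and HNF6. None of these is among the genes described here.

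GATA4 is a zinc finger transcription factor that binds DNA at the motif WGATAR, which stands for the words AGATAA and AGATAG and likewise for TGATAA and also TGATAG, on either strand. In the liver, fatty acids are made from acetyl-CoA, lengthened and desaturated, activated to acyl-CoA, and then either oxidised in mitochondria and peroxisomes or esterified to glycerol and stored as triglyceride in lipid droplets. Lipases release them again, and the transcription factors SREBP1 and ChREBP, encoded by Srebf1 and Mlxipl, switch on the genes of synthesis when insulin and glucose are high.

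The sequences below are stretches of occupied sites at the main steps of the pathway. For each role in the pathway that had a site, the site with the lowest number in the common list is shown, together with the site at the Cpt2 start and the 3 sites of Abhd2, which were added after the values were seen. All are from the plus strand of NCBI Build 37 (mm9), with WGATAR or its reverse complement in capitals. For Mgll and Cpt2, which held no WGATAR, the capitals mark a shorter core on either strand, which is AGATA or else TGATA, with any base after it, and GATAA or else GATAG, with any base before it. Each stretch was cut around the WGATAR or shorter core nearest to the middle of the site. The presence of a motif in a stretch therefore follows from the cutting. Stretches that reach a UTR are limited to 30 bases.
Fads2, intron 5, chr19:10156718-10156797: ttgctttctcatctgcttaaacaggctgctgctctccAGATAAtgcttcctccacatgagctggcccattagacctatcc
Acsl1, intron 7, chr8:47599480-47599559: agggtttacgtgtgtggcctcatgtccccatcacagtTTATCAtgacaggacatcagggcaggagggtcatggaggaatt
Acox2, intron 11, chr14:9076891-9076970: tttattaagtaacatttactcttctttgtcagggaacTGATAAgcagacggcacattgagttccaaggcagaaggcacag
Gpam, exon 1, chr19:55201755-55201784: ataaccagccagAGATAAggtctgctaggc
Mgll, intron 2, chr6:88695140-88695219: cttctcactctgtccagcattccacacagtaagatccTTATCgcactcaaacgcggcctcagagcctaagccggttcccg
Fitm1, downstream, chr14:56204625-56204704: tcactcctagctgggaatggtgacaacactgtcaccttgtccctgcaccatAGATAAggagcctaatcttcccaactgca
Mlxipl, intron 2, chr5:135594667-135594746: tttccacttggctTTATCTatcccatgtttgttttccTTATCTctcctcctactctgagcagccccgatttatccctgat
Cpt2, start site, chr4:107596201-107596230: cttccgggcaccGATAGgcggtggccccgc
Abhd2, intron 3, chr7:86456462-86456541: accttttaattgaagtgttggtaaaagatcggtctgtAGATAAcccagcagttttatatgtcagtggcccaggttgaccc
Abhd2, intron 10, chr7:86503551-86503630: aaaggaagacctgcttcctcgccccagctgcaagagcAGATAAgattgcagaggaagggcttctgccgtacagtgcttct
Abhd2, exon 11, chr7:86508371-86508400: gggtggctgagcTTATCTggctggcatccg

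Occupancy was found at 32.1% of the listed lipid genes (17 of 53, Wilson 95% interval 21.1% to 45.5%). Among all other protein-coding genes the share was 13.6% (3039 of 22327, 13.2% to 14.1%). These intervals cover counting error over genes only, since there is no replicate error to set beside them, and no test was made on a list that was chosen with results known. The other genes were not matched to the lipid genes for expression in liver. The SPP list gave 19 of 53 lipid genes (35.8%), beside 14.5% of the other genes. The MACS2 list, the longest with 5867 peaks, gave 22 of 53 (41.5%), beside 17.3% of the others. Holding 2 or more sites depended on the list. In the common list 2 of 53 lipid genes did (3.77%, 1.04% to 12.8%), beside 3.01% of the others, and in the SPP list likewise 2, beside 3.38%. In the MACS2 list 6 did (11.3%, 5.29% to 22.6%), beside 4.54%. The files held no read counts, so the absence of a site says only that no peak passed the authors' thresholds in both callers.

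Some of the sites lay next to a neighbouring gene. When a site was counted only for the gene with the nearest coding transcription start site (TSS), 13 of 53 lipid genes remained (24.5%), beside 9.82% of the other genes. Acsl5, Agpat2, Pnpla2 and Fitm1 were the genes lost.

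The share of genes with a site went with gene length. The window of a gene with its 10 kb on each side had a median of 46.6 kb in the lipid genes and 35.4 kb in the others, and the share of other genes with a site went from 2.06% in the shortest of 10 bins of windows to 28.4% in the longest. Weighted to the window lengths of the lipid genes, the share of the other genes was 15.1%, which corresponds to 8.01 of 53 genes. The lipid genes with a site had a median window of 52.4 kb and those without a site 42.0 kb. Per Mb of window there were 6.47 sites at lipid genes and 2.80 at other genes, sites counted once for every gene they reached.

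**Figure D1:**
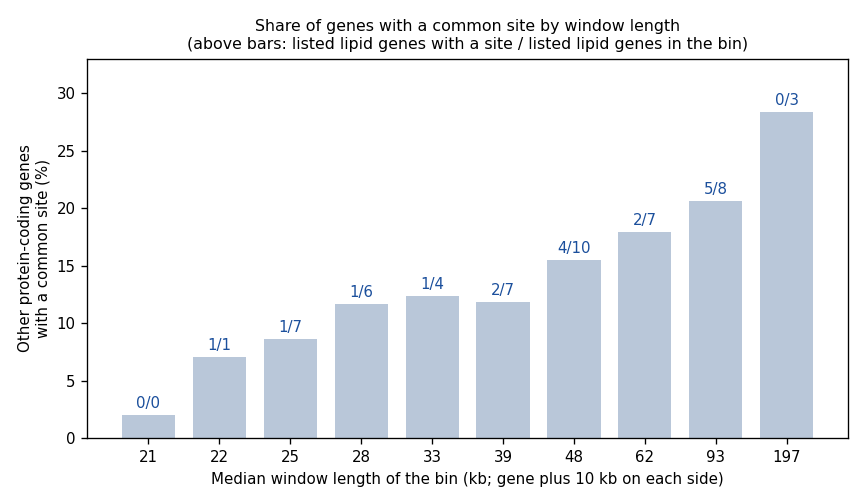
Share of the other protein-coding genes with a common GATA4 site (bars, in percent) in 10 bins of window length, labelled by the median window of the bin in kb. The numbers above the bars give the listed lipid genes with a site over the listed lipid genes in the bin. The bars go from 2.06% to 28.4%, and the 3 lipid genes in the bin of longest windows held no site.

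The counts by step of the pathway are read beside the 13.6% of all other genes and the 32.1% of the whole list. None of the 4 genes of fatty acid synthesis and neither of the binding proteins held a common site, beside 1 of 8 genes of desaturation and elongation, 2 of 4 of activation and thioester cleavage, and 4 of 12 of oxidation. In the glycerolipid branch 3 of 6 genes held a site, and among lipases and their cofactors 5 of 9 genes held 7 sites. Of the lipid droplet proteins 1 of 6 was occupied, and of the regulators 1 of 2. With groups of 2 to 12 genes, a count of 0 or 1 is not a result about a step, and no difference between the steps was tested.

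**Figure D2:**
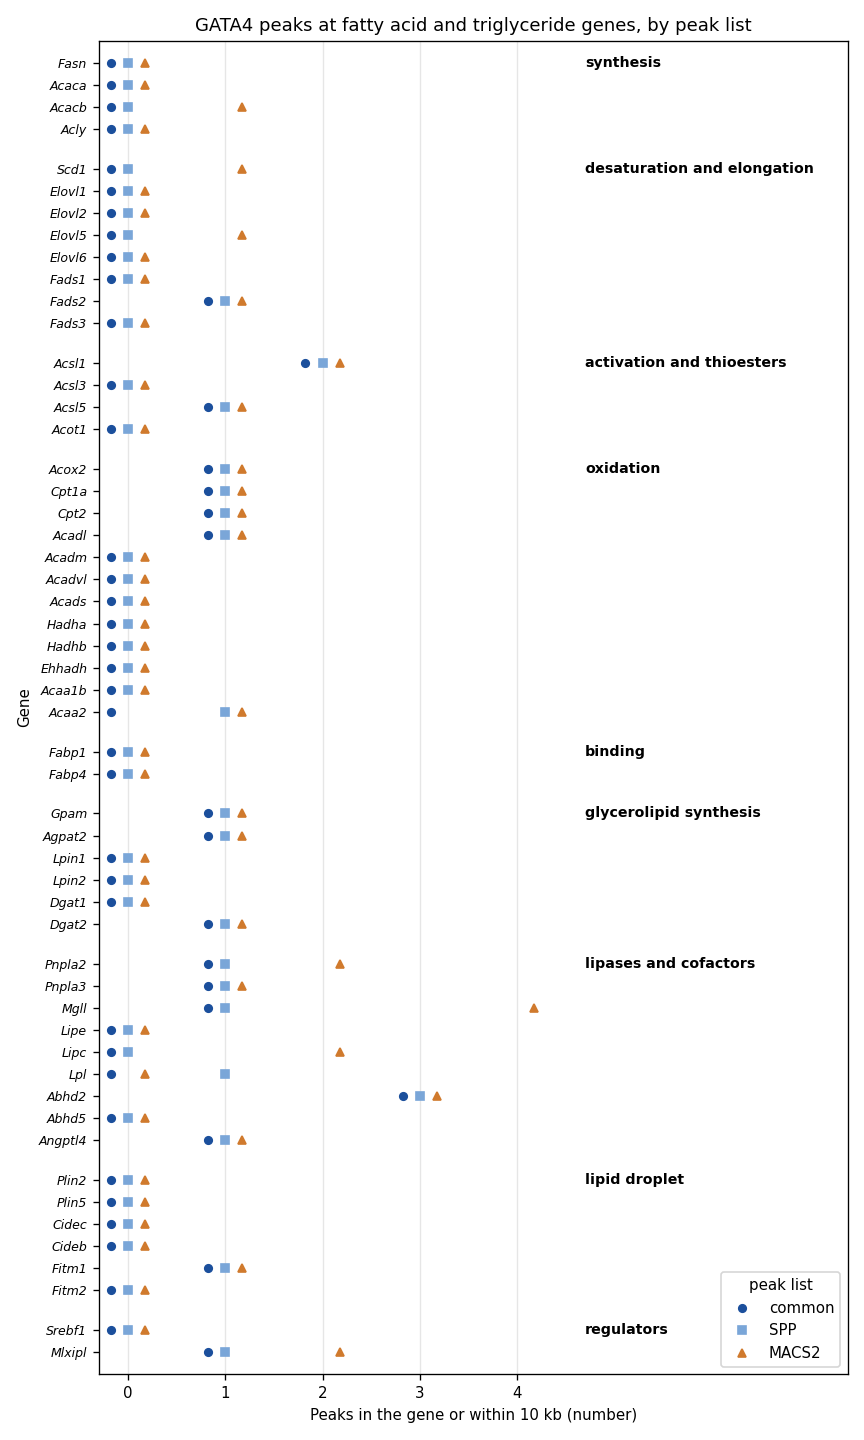
Number of peaks in the gene or within 10 kb (horizontal axis) for each of the 53 genes (rows, grouped by role), in the common list (circles), the SPP list (squares) and the MACS2 list (triangles). The markers of a gene are set slightly apart around the whole number. Abhd2 had 3 sites in every list, Mgll 1 common site and 4 MACS2 peaks, and 30 genes had no peak in any list.

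Fatty acid synthesis showed no common site. Fasn, the fatty acid synthase, lay 168 kb from the nearest one, and Acaca, the cytosolic acetyl-CoA carboxylase, 248 kb. Acly, the ATP citrate lyase that supplies cytosolic acetyl-CoA, was the closest of all unoccupied genes to a site, at 13.2 kb, but that site lay 4422 bp from the TSS of Ttc25. Acacb, the mitochondrial acetyl-CoA carboxylase, had a MACS2 peak with its midpoint 1 bp from an annotated internal TSS (chr5:114625527-114626301), without a WGATAR and without an SPP peak.

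Among the genes of desaturation and elongation, the common site was at Fads2, the desaturase that starts the making of long polyunsaturated fatty acids. It was site number 3224, in intron 5 at 19.2 kb from the TSS (chr19:10156587-10156906), with 2 WGATAR matches starting 62 bp apart, the second of them the AGATAA shown above. The 3 Fads genes lie side by side on chromosome 19, and sites 15.6 kb from Fads1 and 15.9 kb from Fads3 fell outside the window. The nearest TSS of the first of these was that of Fads1, and that of the second Rab3il1. Scd1, the stearoyl-CoA desaturase, and Elovl5, an elongase of polyunsaturated fatty acids, each had a MACS2 peak alone, 8146 bp past the 3' end and 6573 bp before the TSS. Elovl1, Elovl2 and Elovl6, which lengthen other fatty acids, had no peak in any list.

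The acyl-CoA synthetases, which activate fatty acids for every later step, were occupied at Acsl1 and Acsl5. Acsl1, the main form in liver, held 2 sites that both lay inside the gene and upstream of internal start sites. Number 4280 lay in intron 1, 14.2 kb from the first TSS and 5.71 kb before an internal one (chr8:47570461-47570780). Number 2787 lay in intron 7, 43.2 kb from the first TSS (chr8:47599391-47599710). The site assigned to Acsl5 lay 8.47 kb before its TSS and only 3659 bp from the TSS of Gucy2g, and it was the only one of the 20 without even the shorter GATA core. Acsl3, another synthetase, was the farthest of all 53 genes from a site, at 2997 kb, and Acot1, a thioesterase that cleaves acyl-CoA, lay 15.4 kb from one. That site was nearest to the TSS of Acot4, a related thioesterase.

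In the oxidation of fatty acids, GATA4 occupied both of the listed carnitine palmitoyltransferase genes. The Cpt1a site, at the gene for the outer membrane enzyme that controls entry into mitochondria, was number 1106 in intron 1, 9.99 kb from the TSS (chr19:3333218-3333370), with 1 TGATAA. The Cpt2 site, at the gene for the inner membrane enzyme, was number 2139 with its midpoint 5 bp upstream of the TSS (chr4:107596137-107596304). It had the highest GC content of the 20 sites, 70.8%, and 14 CpG dinucleotides, and held no WGATAR but the GATAG shown above. Acadl, the long-chain acyl-CoA dehydrogenase, had number 3839 in intron 1, 547 bp from the TSS, with 1 TGATAA.

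The Acox2 site had the lowest number of all sites at the lipid genes. Acox2 encodes a peroxisomal oxidase of branched-chain acyl-CoA and of bile acid intermediates. Its site was number 71 of the common list and number 58 of the MACS2 list, and it lay in intron 11, 13.4 kb from the nearest TSS (chr14:9076804-9077066). Its only WGATAR was the TGATAA shown above, centred 4.5 bp from the middle of the site. A stretch as wide as the site, 5000 bp to its right, held none.

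The remaining genes of oxidation had no common site. They are Acadm, Acadvl and Acads, the acyl-CoA dehydrogenases of other chain lengths, Hadha and Hadhb, the subunits of the mitochondrial trifunctional protein, Ehhadh, a peroxisomal enzyme of beta-oxidation, and the thiolases Acaa1b and Acaa2. Acaa2, the mitochondrial thiolase, had an SPP peak in intron 1 and a separate MACS2 peak 843 bp before the TSS, which did not overlap and so gave no common site. The nearest common site to Acadvl, 14.5 kb away, was 110 bp from the TSS of Phf23. Neither fatty acid binding protein, Fabp1 of liver and intestine or Fabp4 of fat cells and macrophages, had a peak in any list. Fabp1, an abundant hepatocyte gene, lay 888 kb from the nearest common site and Fabp4 57.5 kb.

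Triglyceride synthesis was counted as occupied at the first, the middle and the last of its acylation steps, with the middle site next to another gene. Gpam encodes the mitochondrial glycerol-3-phosphate acyltransferase that starts the pathway. Its site was number 468 of the common and 741 of the MACS2 list, and its midpoint fell in exon 1, in the 5' UTR, 29 bp past the TSS (chr19:55201697-55201893). It held 1 WGATAR, the AGATAA shown above, 25.5 bp from the middle of the site, and none lay in its control window. Dgat2, which makes triglyceride from diacylglycerol, had number 1172 at 8.92 kb before the TSS (chr7:106340069-106340222), with AGATAA and AGATAG starting 50 bp apart. The site counted for Agpat2, the second acyltransferase, lay 9.26 kb past its 3' end and 70 bp from the TSS of Egfl7, which encodes a factor secreted by endothelial cells. Lpin1 and Lpin2, which make diacylglycerol, and Dgat1 had no peak in any list and lay 251 kb, 302 kb and 276 kb from the nearest common site.

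Lipases and their cofactors held the most sites, 7 at 5 genes. Abhd2, a serine hydrolase that can cleave monoacylglycerol, had 3 sites, and was 1 of 2 lipid genes with more than 1. The study had already listed Abhd2 with GATA4 sites at these 3 places, among genes lowered on its microarray after Gata4 deletion. Number 1013 lay in intron 3, 38.4 kb from the TSS (chr7:86456424-86456603), and held 3 WGATAR, with AGATAA 12 bp from the middle and AGATAG on each side of it. Number 1894 lay in intron 10, 85.5 kb from the TSS (chr7:86503477-86503704), with AGATAA at its middle and AGATAG starting 94 bp further on. Its MACS2 number was 650, beside 1766 and 3943 for the other 2. Number 3824 lay in exon 11, in the 3' UTR, 90.3 kb from the TSS (chr7:86508239-86508558), with AGATAA and AGATAG starting 50 bp apart. All 3 sites thus held both AGATAA and AGATAG. The latter 2 were nearer to the TSS of Rlbp1, at 28323 bp and 23515 bp, than to that of Abhd2.

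Mgll, the monoacylglycerol lipase that frees the last fatty acid, had number 117 of the common and 225 of the MACS2 list, in intron 2 at 20.4 kb from the TSS (chr6:88695059-88695312). This site held no WGATAR, nor did the 500 bp around its midpoint, and its only core was the GATAA shown above as TTATC. Mgll also had 3 peaks of MACS2 alone, 7385 bp before the TSS, in intron 2 and in intron 3, each with 1 or more WGATAR, the second with 5. Angptl4, a secreted inhibitor of lipoprotein lipase, had number 119 of the common and 501 of the MACS2 list, 7.37 kb before the TSS (chr17:33925726-33926050). It held 1 AGATAA, 39.5 bp from the middle of the site, the farthest among the 17 sites with a WGATAR.

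Pnpla3, which encodes a lipase-like protein of lipid droplets, had number 2316 in intron 1, 792 bp from the TSS (chr15:83998955-83999122), with an AGATAA 2 bp from the middle. The site counted for Pnpla2, the main triglyceride lipase, lay 8.38 kb past the 3' end and 335 bp from the TSS of Cd151. It held 3 WGATAR. A MACS2 peak in intron 1 of Pnpla2, 462 bp before its nearest annotated TSS, held none and was not found by SPP.

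Of the lipases without a common site, Lipc, the hepatic lipase, had 2 MACS2 peaks in intron 1, with 2 and 3 WGATAR, the latter 152 bp from an internal TSS. Lpl, the lipoprotein lipase, had an SPP peak alone, 4375 bp before the TSS with 2 WGATAR. The nearest common site to Lpl was number 19, among the lowest numbers of the list, at 34.2 kb. Lipe, the hormone-sensitive lipase, and Abhd5, the cofactor of Pnpla2, had no peak in any list.

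Of the lipid droplet genes, only Fitm1 was counted as occupied. FITM proteins act in the budding of droplets from the endoplasmic reticulum. The site was number 3655, 8.87 kb past the 3' end of this gene of 1.28 kb and 517 bp from the TSS of Fam158a, and 3 more protein-coding genes lay within 10 kb of it. The study had already listed this site at Fitm1, among genes raised on its microarray after Gata4 deletion. Plin2 and Plin5, which coat droplets, Cidec and Cideb, which act in droplet fusion and lipoprotein lipidation, and Fitm2 had no peak in any list. Cideb lay 23.0 kb from a common site and the other 4 between 74.9 kb and 233 kb.

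Of the 2 regulators, 1 held a common site. Mlxipl, which encodes the glucose-responsive factor ChREBP, had number 1309 in intron 2, 11.9 kb from the TSS (chr5:135594640-135594834), with 2 AGATAA on the minus strand starting 24 bp apart, the closest pair among the lipid gene sites, and a MACS2 peak 5759 bp before the TSS. Srebf1, which encodes SREBP1, had no peak in any list, and the common site 18.1 kb away was nearest to the TSS of Tom1l2.

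**Figure D3:**
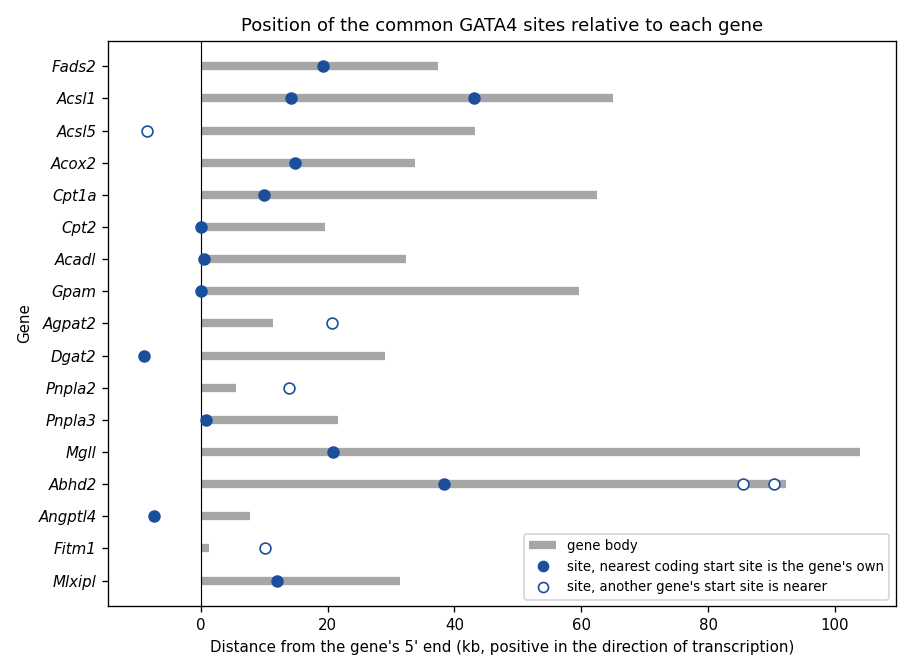
Midpoints of the 20 common sites (circles) along the 17 occupied genes (rows), as distance in kb from the 5' end of the gene in the direction of transcription. Grey bars are gene bodies. Filled circles mark the 14 sites whose nearest coding TSS belongs to the gene, and open circles the 6 sites nearer to another gene. The circles of Cpt2, Acadl, Gpam and Pnpla3 sit at the 5' end.

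By place, 11 of the 20 sites lay in introns (55%), 1 in a 5' UTR exon, 1 in a 3' UTR exon, 4 upstream and 3 downstream of the gene. Those of Cpt2, Acadl, Gpam and Pnpla3 lay within 1 kb of the gene's own TSS, and no other was added within 5 kb. A further 3, at Agpat2, Pnpla2 and Fitm1, lay within 1 kb of the TSS of a neighbour. Together 7 of 20 sites (35%) were within 1 kb of a coding TSS, beside 20.4% of the 3162 other common sites that lay in or within 10 kb of a protein-coding gene. No test was made of this difference, and 7 sites are few.

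By midpoint, the window of 10 kb decided 7 of the 17 genes, since 10 had a site midpoint in the gene body itself. Among the 7 was Cpt2, whose site overlapped the gene with its midpoint 5 bp outside. The sites farthest from their genes inside the window were those of Agpat2 at 9.26 kb and Dgat2 at 8.92 kb, and the nearest outside it were those of Acly at 13.2 kb and Acadvl at 14.5 kb. Over all 53 genes the median distance from gene to nearest common site was 43.6 kb, beside 158 kb for the other protein-coding genes. The 36 genes without a site had a median of 113 kb, with 6 of them within 20 kb and 18 beyond 100 kb.

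A WGATAR was present in 17 of the 20 sites (85%, Wilson 95% interval 64.0% to 94.8%), beside 82.9% of the 4389 other common sites. Control windows, as wide as the sites and 5000 bp to their right, held a match in 8 of 20 cases (40%) at the lipid genes and in 31.9% of cases at the other sites. The 3 sites without WGATAR were those of Acsl5, Cpt2 and Mgll. The shorter core was in 19 of 20 sites, beside 92.8% of the others. In 8 sites (40%) there were 2 or more WGATAR, beside 34.7% of the others. By these measures over the whole site, the lipid gene sites had values near those of the whole list. Within the central 100 bp the shares with a WGATAR lay further apart, at 85% (64.0% to 94.8%) and 74.2%. No difference was tested.

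**Figure D4:**
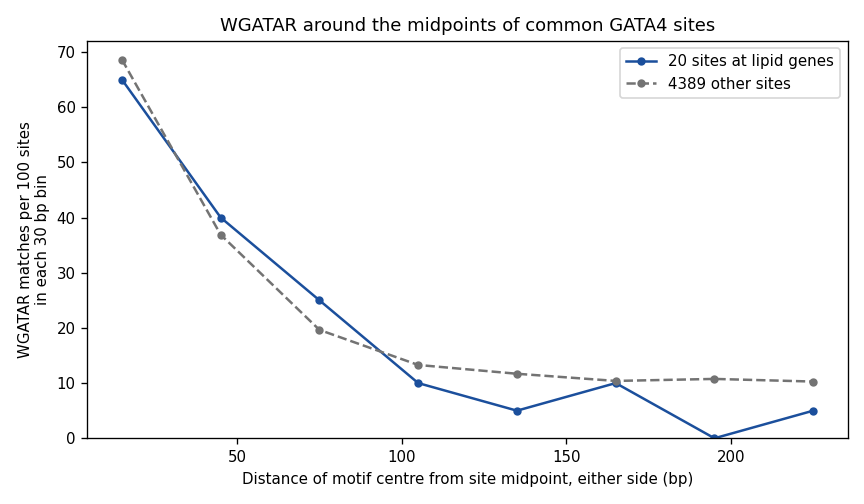
WGATAR matches per 100 sites (vertical axis) in bins of 30 bp by distance from the midpoint of the site to either side (horizontal axis, bp), for the 20 sites at lipid genes (solid line) and the 4389 other common sites (dashed line). The first bin held 65.0 and 68.6 matches per 100 sites, and the bin from 90 to 120 bp held 10 and 13.3.

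The matches lay close to the middle of the sites. The nearest WGATAR was a median of 19 bp from the middle of the 17 lipid gene sites and 18 bp in the others, and 9 of the 17 lay within 20 bp. Of 27 matches in all, 12 were AGATAA (44.4%), beside 44.6% in the other sites, and 7 were AGATAG (25.9%), beside 17.5%. The word TGATAA made up 6 of them (22.2%), beside 26.8%, and TGATAG the last 2.

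Words that other factors bind were present at few of the lipid gene sites. The ETS word AGGAAGT was in 4 of 20 sites (20%), at Fads2, Agpat2, Pnpla2 and the first Abhd2 site, beside 14.6% of the other sites. Their own control windows held it in 2 of 20 cases (10%) and those of the other sites in 5.61%. The C/EBP word TTGCNNAA was in 3 (15%), at Acsl1, Gpam and Angptl4, beside 12.6%. The NFI half-site TTGGCA was in 3, at Acsl5, Abhd2 and Angptl4, beside 16.3%. The E-box CACGTG, the word ChREBP and other helix-loop-helix factors bind, was in 1 (Abhd2 number 3824), beside 3.96%, the AP-1 word TGANTCA in 1 (Pnpla2), beside 7.56%, and the sterol element TCACNCCAC in 1 (Dgat2), beside 0.752%. The FOXA word TGTTTAC and the HNF4 word CAAAGTCCA were in none, for which the interval reaches 16.1%, beside 6.29% and 1.16% of the other sites. The same held for AGGTCA repeated after a spacer of 1 base, which was in 0.114% of the other sites. In the control windows of the lipid gene sites the AP-1 word was in 2 of 20, more than in the sites themselves, the NFI half-site in 2 and each of the remaining words in none. In the control windows of the other sites the shares were 8.66% for C/EBP, 10.5% for NFI, 2.71% for the E-box, 5.88% for AP-1 and 0.661% for the sterol element, and 2.89%, 0.274% and 0.0912% for FOXA, HNF4 and the AGGTCA repeat. All words were searched on both strands. An ETS match shared 1 base with a WGATAR in the Fads2 site and 2 bases in the first Abhd2 site, the NFI half-site of Angptl4 lay within a C/EBP match, and an ETS and an AP-1 match of Pnpla2 shared 1 base. With 20 sites the intervals are wide, and no difference between these shares was tested.

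In the common list, 5 of the sites at the lipid genes lay in each of 4 equal parts by number. The median number was 2227.5, which is 50.5% of the way down the list, beside 2205 for the other sites. By the number of the overlapping MACS2 peak the median was 1881.5, which is 32.1% of the way down that longer list, beside 2196 for the other sites. The numbers are those in the peak names, the files do not state what they follow, and no measure of strength is attached to a site. The median width was 196 bp, beside 190 bp, and the GC content 49.5%, beside 49.4%.

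**Figure D5:**
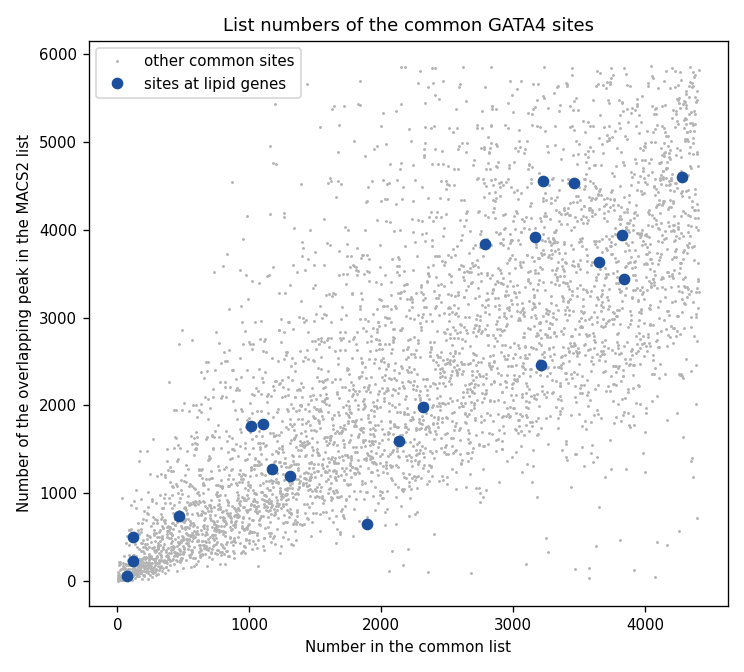
Number of each common site in the common list (horizontal axis) and number of the MACS2 peak it overlaps (vertical axis), for the 20 sites at lipid genes (large points) and the 4389 others (small points). The lipid gene sites run from Acox2, 71 and 58, to the first intron of Acsl1, 4280 and 4604.

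Other genes of the same pathway were a list of 68 names, of which 67 were in the annotation. Of these, 20 genes (29.9%) were occupied, with 27 sites counted once for every gene they reached. This share is read beside the 32.1% of the 53 genes and the 13.6% of protein-coding genes outside the 53. It was not weighted by window length, and no difference was tested. Among the 20 genes were Pparg, a nuclear receptor for fatty acids, Insig1, which restrains the SREBP proteins, and Mttp, which loads lipid onto lipoproteins. The sites of these genes were nearest to their own TSS. The site of Ppara, another such receptor, lay 38476 bp from a Ppara TSS and nearer to that of 2210021J22Rik. The sites of Scap and Plin3 and some of those of Lipa were also nearest to the TSS of another gene.

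Genes that mark cell types of the liver were also counted, where a site is occupancy and not expression. These lists were chosen with earlier results known, and the study had already reported GATA4 at the albumin enhancer and at F10, Hnf4a, Stab1 and Stab2. The counts are therefore no check of the cells in the tissue. Common sites were present at 4 of 8 hepatocyte genes (Alb, Ttr, Hnf4a and F10) and at 6 of 7 endothelial genes (85.7%), beside the 13.6% of other protein-coding genes. The site counted for Alb lay 24837 bp from an Alb TSS in the direction of transcription. It held no WGATAR and was nearest to the TSS of Afp. None was present at 5 Kupffer cell, 4 cholangiocyte, 4 stellate cell or 4 cardiomyocyte genes, lists so short that a count of 0 is near that background and says nothing of those cells. In which of these cells the 20 lipid gene sites were occupied was not tested.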

How the data were processed

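ChIP-seq reads of GATA4 and input DNA were aligned by the authors to mm9 with Bowtie 0.12.7, keeping uniquely placed reads. Peaks were called with a modified SPP and with MACS2 2.0.10 for the replicates separately and together, with pooled input as background, thresholds were set by the reproducibility of ranks between replicates (IDR), and SPP peaks that overlapped MACS2 peaks (bedtools 2.16.1) formed the common list. The deposited files hold position, number and score, and the score set by the authors was 1000 in all 15087 peaks, so it was not used. Depth per peak was not given in the files.

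All peaks ended within the chromosomes of NCBI Build 37 (mm9), on which GENCODE M1 genes were used. Sites were assigned by midpoint, motifs matched exactly on both strands, and shares given Wilson 95% intervals (Python 3.11.15, scipy 1.17.1). Assignment and motif search were tested on simulated data. The members and lists were chosen with earlier results of these data known, so no test was made on them. All members are named by role, and genes with 3 or more sites or a number up to 1000 are described site by site. Alternatives were the reach, the list, the gene model, the motif and the control window. Near-identical genes such as Acot1 and Acaa1b may lose reads that were not uniquely placed, which was not tested. Expression data of the study were not analysed here.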

Additional observations from a re-analysis of the deposited data

How the results depend on the processing

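Of 42 alternatives, 29 changed a count by less than 1.5 times or left a share within its interval. With the gene body alone, 10 lipid genes with 13 sites and 1707 other genes were occupied. With 5 kb on each side 11 lipid genes (20.8%) and 2527 other genes (11.3%) were occupied, the lowest ratio at 1.83. With 50 kb, 28 lipid genes with 56 sites and 6166 other genes were. The MACS2 list gave 31 peaks at lipid genes and 5530 at other genes, peaks counted once for every gene they reached. Sites numbered up to the middle of the common list gave 9 lipid genes with 10 sites and 1607 other genes. The shorter core in place of WGATAR gave 95% of the sites. The median list number moved from 50.5% of the common list to 32.1% of the longer MACS2 list. The other common sites had medians of 2205 in the list of 4409 and 2196 in the list of 5867. In every one of these settings of reach and list the share of lipid genes was between 1.83 and 2.48 times that of the other genes. None of these ratios was weighted by window length. All of them use the same listed genes, chosen with earlier results known, so they are not independent of each other. Counting only sites with the nearest TSS was added after the data were seen. No paired analysis was possible because the ChIP and the input are 1 sample each and the input has no file of its own. The lists carry no depth and no replicate values, so sites below the authors' thresholds and the spread between mice could not be assessed.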
